A study of Bos taurus with 24 samples.

Results

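The genes described are 3 Wnt ligands (WNT2, WNT5A and WNT5B), 6 secreted Wnt inhibitors (SFRP1, SFRP2, SFRP4, DKK1, DKK2 and DKK3) and AXIN2, a feedback gene of the pathway. These 10 genes were found by symbol among 27371 gene symbols on 59846 rows, and each had 1 row. RNA-Seq was performed on cultured dermal fibroblasts, which build the collagen matrix of skin, from 4 Holstein (dairy) and 4 Angus (beef) heifers. Every culture was harvested untreated (0 h) and at 2 h and 8 h after lipopolysaccharide (LPS, the endotoxin of Gram-negative bacteria) at 100 ng/ml, which gave 24 libraries in 6 groups of 4. The comparisons ask how expression differs between the breeds at each hour and how it responds to LPS. The same animals stand at all hours, and the 2 h and 8 h comparisons share their 0 h libraries. An LPS-free culture at 2 h or 8 h was not analysed here, so LPS and time in culture cannot be told apart.

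Wnt proteins are secreted lipid-modified ligands that bind Frizzled receptors. In the canonical branch they stabilise β-catenin, which acts with TCF/LEF factors on target genes, and in other branches they act on cell shape and movement. SFRP proteins bind Wnt ligands outside the cell, whereas DKK1 and DKK2 bind the LRP5 and LRP6 co-receptors. In skin, Wnt signalling is known for its part in hair follicle formation and in the identity of dermal fibroblasts.

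Counts per library ranged from 51014538 to 104406293, and the unit of level is CPM, in which each library is scaled to the same total with TMM factors. Before the TMM factors, 1 CPM stood for 51.0 to 104.4 counts. All 12 dermal fibroblast markers had a mean of at least 1 CPM over the 24 libraries. Of the markers of other cell types, CDH5 and KDR (endothelium), PTPRC (leukocytes) and TYR and MLANA (melanocytes) were under 1 CPM in every library. So were KRT10, CDH1 and EPCAM of the 8 keratinocyte markers, while KRT1 had no count. Other markers of these lists had a mean of at least 1 CPM over the 24 libraries, though not always in each group. They were 2 of 7 endothelial, 1 of 8 leukocyte (CD68), 2 of 6 melanocyte (PMEL and MITF) and 2 of 8 keratinocyte markers. The same held for 1 of 4 Schwann cell markers (S100B) and 4 of 5 smooth muscle and pericyte markers. In 4 libraries (Angus 4, Holstein 2 and Holstein 4 at 0 h, Angus 3 at 2 h) the collagen gene COL1A1 had fewer covered bases per count than in the others (below 0.75 of the median), so results whose call changes without them are given both ways. In bulk samples, fewer cells of a type and less RNA per cell cannot be told apart.

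Of the 10 members, 7 reached 1 CPM in enough libraries to be tested, and SFRP1, SFRP4 and DKK1 did not. A row passed the threshold with a false discovery rate (FDR) under 0.05 by edgeR's likelihood-ratio test, a change of 2-fold or more and an average above 1 CPM. By this rule 4 of the 7 tested members passed at least once over the 12 comparisons, where 11.0% of all rows tested did. WNT5A and AXIN2 rose after LPS, DKK2 was lower in Holstein cultures at every hour, and WNT2 was higher in Holstein cultures at 8 h. WNT5A was also lower in Holstein cultures at 2 h.

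At 2 h after LPS with both breeds together, 2 of 7 tested members passed, both upward, where 2.82% of all rows passed in either direction and 2.08% upward. The median log2 fold change of the 7 was 0.16, against -0.004 over all rows. At 8 h against 0 h, 2 of 7 passed, both upward, where 1.42% of all rows passed. Between 8 h and 2 h, 0 of 7 passed with edgeR (2.76% of all rows), 0 of 7 had an unadjusted p under 0.05, and DESeq2 also called 0.

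WNT5A, a ligand best known for acting outside the β-catenin branch, rose in both breeds. Its row on build UMD v3.1 is chr22:46096228-46112683, plus strand. In Angus cultures its levels in animals 1 to 4 were 14.2, 9.93, 4.15 and 13.3 CPM at 0 h, 50.5, 24.3, 19.3 and 36.6 CPM at 2 h, and 42.3, 27.9, 16.9 and 25.0 CPM at 8 h. In Holstein cultures they were 4.41, 3.90, 10.0 and 8.15 CPM at 0 h, 7.05, 8.01, 21.6 and 13.7 CPM at 2 h, and 12, 15.9, 31.9 and 24 CPM at 8 h. Every animal was higher at both later hours than at 0 h. In Angus the 0 h levels lay below all 2 h and 8 h levels, and in Holstein they lay below all 8 h levels but overlapped those at 2 h.

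With both breeds together, the log2 fold change of WNT5A was 1.41 at 2 h (SE 0.39, FDR = 0.00289) and 1.53 at 8 h (SE 0.31, FDR = 3.66e-05), with 8 of 8 animals higher each time. A rise in every animal was seen for 17.1% of all rows at 2 h and 12.6% at 8 h. Within Angus, where 3.0% of rows passed at 2 h and 0.868% at 8 h, the gene rose by 1.66 at 2 h (SE 0.41, FDR = 0.0014) and by 1.44 at 8 h (SE 0.39, FDR = 0.0139). The Angus call at 8 h was lost with edgeR's quasi-likelihood F test (FDR = 0.115), without Angus 1 (FDR = 0.073) and without Angus 2 (FDR = 0.203). Within Holstein, where 3.17% of rows passed at 2 h and 2.52% at 8 h, the log2 fold change was 0.92 at 2 h (SE 0.41, FDR = 0.121), short of the threshold, and the gene rose by 1.67 at 8 h (SE 0.38, FDR = 2.99e-04). With a block for the animal, the Holstein value at 2 h was 0.90 with an FDR of 4.68e-17, still under the fold limit, in a fit where 35.8% of all rows had an FDR under 0.05.

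The 2 h level of WNT5A was 2.44 to 4.65 times the 0 h level in the Angus animals and 1.60 to 2.15 times in the Holstein animals, so the changes did not overlap, which held for 9.59% of all rows. From 2 h to 8 h all 4 Holstein animals went up, by 0.56 to 0.99 on the log2 scale, and 3 of 4 Angus animals went down. The test of the breed difference in the 2 h change gave -0.72 (SE 0.62, FDR = 1.0), and with a block for the animal it was -0.80 (FDR = 0.00466), under the fold limit. The percentage of all rows with an FDR under 0.05 in that blocked fit was 4.28%. In this breed by LPS interaction 0 of 7 members passed at 2 h (0.278% of all rows) and 0 of 7 at 8 h (0.0982%) with edgeR, 0 had an unadjusted p under 0.05 at either hour, and DESeq2 called 0.

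WNT5B, a close relative of WNT5A, did not pass in any comparison. Its row is chr5:108637828-108650089, plus strand, and its levels ranged from 6.10 to 39.2 CPM over the 24 libraries. In Angus animals 1 to 4 they were 19.6, 9.06, 7.55 and 23.1 CPM at 0 h, 39.2, 17.4, 11.6 and 38.0 CPM at 2 h, and 29.6, 16.6, 11.9 and 26.6 CPM at 8 h. In Holstein animals they were 7.91, 6.10, 15.1 and 17.0 CPM at 0 h, 14.2, 12.1, 26.7 and 26.8 CPM at 2 h, and 12.5, 8.92, 18.1 and 12.9 CPM at 8 h. At 2 h all 8 animals were above their own 0 h level, although the groups overlapped, and the animals of a breed differed up to 3.06-fold at 0 h. The log2 fold change at 2 h was 0.82 (SE 0.33, FDR = 0.0564). With a block for the animal it was 0.82 with an FDR of 1.22e-40, where 47.5% of all rows had an FDR under 0.05. Without the 4 libraries named above, it passed the threshold at 1.07 (FDR = 0.0202).

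WNT2, a ligand of the canonical branch, differed between the breeds at 8 h. Its row is chr4:51398056-51441973, plus strand. In Angus animals 1 to 4 the levels were 2.11, 2.08, 2.00 and 0.711 CPM at 0 h, 1.19, 2.67, 2.46 and 1.17 CPM at 2 h, and 1.66, 1.43, 3.34 and 0.921 CPM at 8 h. In Holstein animals they were 2.73, 1.52, 3.86 and 3.22 CPM at 0 h, 2.75, 2.28, 3.49 and 3.16 CPM at 2 h, and 4.43, 5.18, 4.33 and 5.28 CPM at 8 h. The breeds overlapped at 0 h and 2 h, and at 8 h every Holstein library lay above every Angus library, as 10.8% of all rows did.

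At 8 h WNT2 was 2.62-fold higher in Holstein cultures (log2 1.39, SE 0.35, FDR = 0.00245). The difference was 0.73 at 0 h (SE 0.39, FDR = 0.218) and 0.64 at 2 h (SE 0.32, FDR = 0.158), neither past the threshold. Within Holstein all 4 animals were higher at 8 h than at 0 h, with a log2 fold change of 0.77 (SE 0.27, FDR = 0.0315) that lay under the fold limit. A rise in every Holstein animal was seen for 25.6% of all rows, and 14.7% had an FDR under 0.05. Within Angus the value was 0.10 (SE 0.46, FDR = 0.973). The interaction at 8 h was 0.66 (SE 0.55, FDR = 1.0), so the breeds' changes were not shown to differ.

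**Figure D1:**
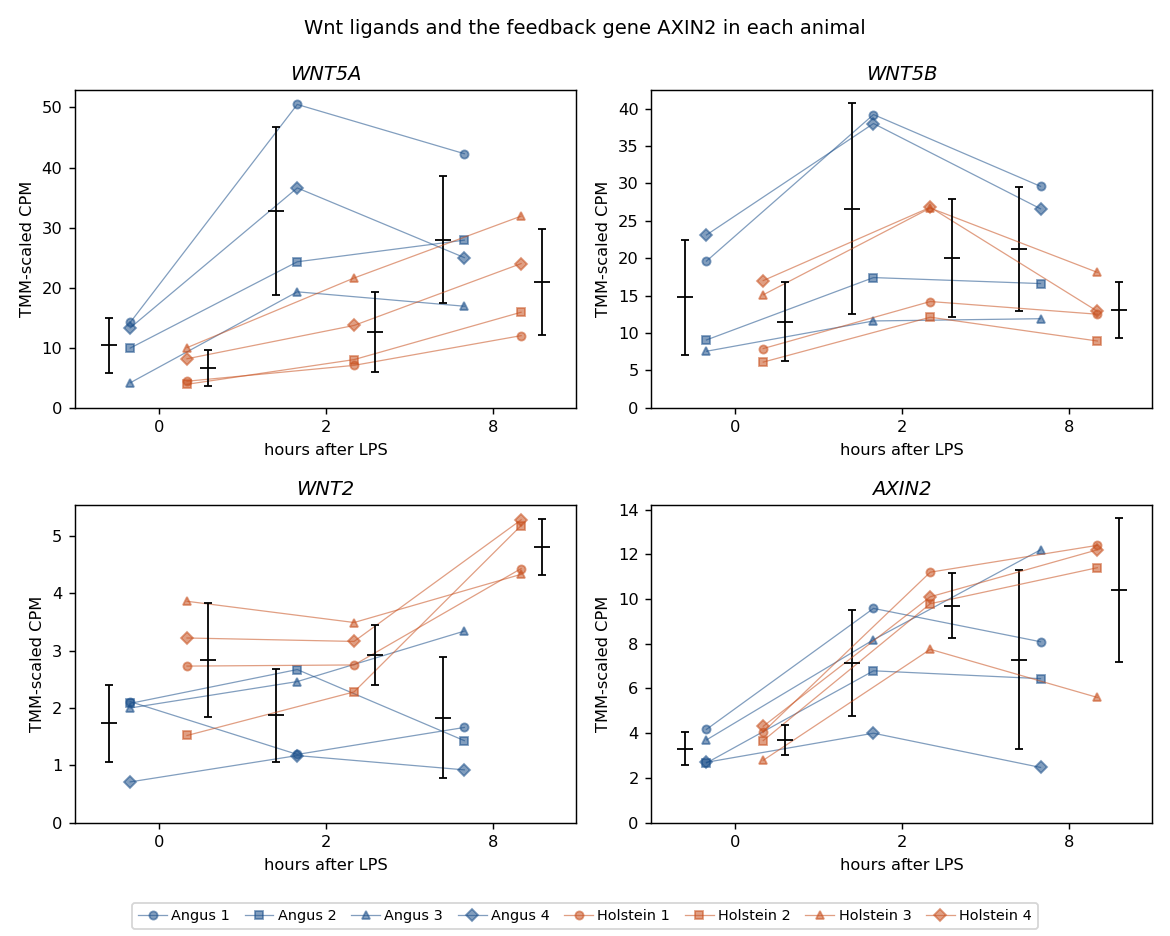
Levels of WNT5A, WNT5B, WNT2 and AXIN2 (TMM-scaled CPM, linear axes from 0) against hours after LPS. Each symbol and line is 1 animal, blue for Angus and orange for Holstein, and the black bars give the mean ± SD of 4 animals. WNT5A is above its 0 h level in all 8 animals at 2 h and 8 h, the Holstein levels of WNT2 lie between 4.33 and 5.28 CPM at 8 h, and AXIN2 in Angus 4 is at 2.47 CPM at 8 h.

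AXIN2 codes for a scaffold of the complex that degrades β-catenin and is itself a target of β-catenin, so it is widely read as a feedback gene. Its row is chr19:62834850-62860774, minus strand. In Angus animals 1 to 4 its levels were 4.17, 2.67, 3.70 and 2.70 CPM at 0 h, 9.58, 6.79, 8.18 and 4.00 CPM at 2 h, and 8.09, 6.44, 12.2 and 2.47 CPM at 8 h. In Holstein animals they were 4.06, 3.67, 2.79 and 4.31 CPM at 0 h, 11.2, 9.79, 7.75 and 10.1 CPM at 2 h, and 12.4, 11.4, 5.6 and 12.2 CPM at 8 h. In Holstein the 0 h levels lay below all later ones. In Angus, animal 4 was the lowest library at 2 h and at 8 h, and its 8 h level was below its own 0 h level.

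With both breeds together AXIN2 rose by 1.27 at 2 h (SE 0.20, FDR = 5.38e-09, 8 of 8 animals) and by 1.34 at 8 h (SE 0.27, FDR = 3.65e-05, 7 of 8 animals). Within Holstein it rose 2.62-fold at 2 h (log2 1.39, SE 0.19, FDR = 2.15e-11) and 2.82-fold at 8 h (log2 1.49, SE 0.27, FDR = 1.64e-06). Within Angus it rose by 1.12 at 2 h (SE 0.30, FDR = 0.00377). That call was lost without Angus 2 (FDR = 0.0809), and without the 4 libraries named above the value was 0.96 (FDR = 0.0692). At 8 h the Angus value was 1.15 (SE 0.42, FDR = 0.116). Without Angus 4 it was 1.35 with an FDR of 0.00225, and with a block for the animal it was 0.98 with an FDR of 0.00229, under the fold limit, where 20.7% of all rows had an FDR under 0.05. Between the breeds AXIN2 differed by 0.17, 0.44 and 0.52 at 0, 2 and 8 h (SE 0.23, 0.27 and 0.43), and no hour passed (FDR from 0.252 to 0.689).

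At 0 h, 1 of 7 members passed between the breeds (DKK2, lower in Holstein), where 3.83% of all rows passed. At 2 h, 2 of 7 passed, both lower in Holstein (DKK2 and WNT5A), where 4.46% of all rows passed and 2.02% in that direction. At 8 h, 2 of 7 passed, where 3.26% of all rows passed. DKK2 was the lower one and WNT2 the higher one. WNT5A at 2 h was 2.60-fold lower in Holstein cultures (log2 -1.38, SE 0.40, FDR = 0.00795), although Holstein 3 (21.6 CPM) lay above Angus 3 (19.3 CPM). Without Angus 1 the difference was -1.08 (FDR = 0.0539) and no longer passed. At 0 h and 8 h it was -0.64 (SE 0.42, FDR = 0.33) and -0.42 (SE 0.35, FDR = 0.452).

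DKK2, a secreted protein that binds the LRP co-receptors and can block canonical signalling, had the largest breed difference among the members that passed. Its row is chr6:19381413-19511163, plus strand. In Angus animals 1 to 4 the levels were 12.6, 9.69, 9.48 and 30.8 CPM at 0 h, 15.0, 9.91, 9.78 and 31.9 CPM at 2 h, and 9.26, 9.02, 6.19 and 20.2 CPM at 8 h. In Holstein animals they were 2.25, 1.46, 3.78 and 4.69 CPM at 0 h, 2.89, 1.79, 3.89 and 3.94 CPM at 2 h, and 2.76, 1.43, 3.12 and 3.62 CPM at 8 h. At every hour the highest Holstein library was below the lowest Angus library. Angus 4 was the highest library at all 3 hours.

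DKK2 was 5.10-fold lower in Holstein cultures at 0 h (log2 -2.35, SE 0.46, FDR = 1.03e-04), 5.31-fold lower at 2 h (log2 -2.41, SE 0.41, FDR = 2.23e-06) and 4.07-fold lower at 8 h (log2 -2.03, SE 0.40, FDR = 7.54e-05). Groups that did not overlap, lower in Holstein, made up 8.82%, 11.2% and 9.66% of all rows at the 3 hours. The call held at each hour under every alternative that was run, among them the fits without Angus 4. After LPS no comparison passed: the log2 fold change was 0.07 at 2 h (SE 0.60, FDR = 0.97) and -0.42 at 8 h (SE 0.57, FDR = 0.723). All 4 Angus animals were lower at 8 h than at 0 h, and the Angus value was -0.48 (SE 0.47, FDR = 0.763), or -0.43 with a block for the animal (FDR = 0.00126), under the fold limit. Without the 4 libraries it was 0.084 (FDR = 0.97). A fall in every Angus animal was seen for 22.9% of all rows. From 2 h to 8 h DKK2 was lower in 8 of 8 animals, as 17.8% of all rows were, with a value of -0.49 (SE 0.57, FDR = 0.614). The block gave -0.38 (FDR = 5.24e-04), where 48.4% of all rows had an FDR under 0.05.

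Some markers of dermal fibroblasts and of other cell types differed between the breeds. The 12 dermal fibroblast markers, COL1A1 among them, summed to 60800-77200 CPM in Angus and 82300-133000 CPM in Holstein libraries at 0 h. The sums were 51900-95600 and 78200-96300 CPM at 2 h, and 44200-66400 and 68500-88700 CPM at 8 h, so the breeds overlapped at 2 h only. These sums include the 4 libraries with another counting of COL1A1, which stand at 0 h and 2 h. Sums without those libraries or without COL1A1 were not taken. RGS5, a pericyte gene, was higher in Holstein cultures at 0 h (log2 1.33, FDR = 0.0108), and VWF, an endothelial gene, was higher at 2 h (1.11, FDR = 0.015) and 8 h (1.31, FDR = 0.00142). The fibroblast markers COL1A1 and FAP and the leukocyte marker CD68 also passed the threshold at least once over the LPS and breed comparisons. The paper lists FAP as higher in Holstein cultures at 0 h and 2 h. The RGS5 row overlaps RGS4 on the minus strand and an unnamed interval, and it had 537.6 to 1049.2 covered bases per count. Reads of RGS4 can therefore enter the RGS5 row, and their part in its value was not tested. Of the 5 smooth muscle and pericyte markers, 4 had a mean of at least 1 CPM over all libraries. Together the 5 summed to 3690-6210 CPM in the Angus and 6560-8080 CPM in the Holstein libraries at 0 h. At 2 h the sums were 4480-6920 and 6400-7380 CPM, and at 8 h 2920-4760 and 4030-5500 CPM, so the breeds overlapped at the later hours. ACTA2 held most of their counts (9515263 over all libraries, against 435716 for CSPG4). The 6 melanocyte markers summed to 10.4-11.5 CPM in Angus and 5.83-7.90 CPM in Holstein at 0 h. Their sums were 6.12-7.86 and 5.65-6.39 CPM at 2 h, where the breeds overlapped, and 9.37-12.2 and 6.49-8.34 CPM at 8 h. MLANA, TYR, DCT and TYRP1 were under 1 CPM in every library. The 7 endothelial markers summed to 2.32-3.23 CPM in Angus and 2.01-4.36 CPM in Holstein at 0 h, 2.05-2.95 and 3.19-4.73 CPM at 2 h, and 2.61-3.34 and 3.53-5.24 CPM at 8 h, so the breeds did not overlap at the later hours. CDH5, KDR, TIE1 and CLDN5 were under 1 CPM in every library. The 8 keratinocyte markers summed to 1.49-2.02 CPM in Angus and 1.82-13.7 CPM in Holstein at 0 h, 1.58-2.2 and 2.3-13.6 CPM at 2 h, and 1.59-1.90 and 1.93-15.9 CPM at 8 h. The part of these differences in the breed values of DKK2 and WNT2 was not tested.

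The DKK2 row shares 84708 bases with an interval that carries no gene symbol, chr6:19426456-20091362, and 1880 bases with LOC100848567 on the minus strand, which had 7 counts in all libraries together. At 0 h the unnamed interval stood at 25.8-66.1 CPM in Angus libraries and 7.12-13.1 CPM in Holstein libraries, and it was lower in Holstein cultures by -1.95 at 0 h (FDR = 9.35e-07), -1.92 at 2 h (FDR = 2.84e-07) and -1.77 at 8 h (FDR = 3.11e-05). Because the rows overlap, the same reads can enter both, and their values are not independent. The interval on the other side of DKK2, chr6:18854671-19381412, shares no base with it, had 1.18 to 2.61 CPM, and differed between the breeds by 0.05, 0.07 and -0.04 (FDR from 0.874 to 0.917). DKK2 also had 152.8 to 207.6 covered bases per count, against 77.1 to 102.3 for the other tested members, and the cause was not tested.

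**Figure D2:**
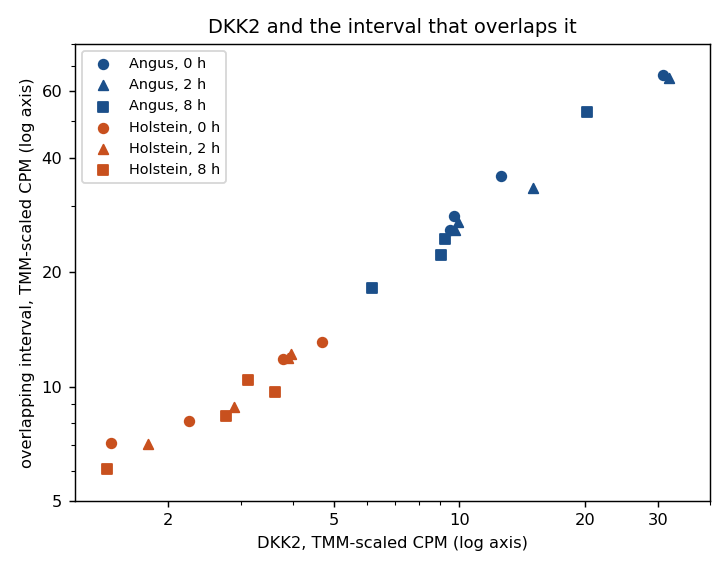
DKK2 against the unnamed interval that overlaps it, both in TMM-scaled CPM on log axes, with 1 point per library, breeds by colour and hours by shape. The 12 Holstein libraries lie at or under 4.69 CPM of DKK2 and the 12 Angus libraries at or above 6.19 CPM, and the interval splits them the same way.

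SFRP2, a secreted Frizzled-related protein made by dermal fibroblasts, varied more between animals at 0 h than any other tested member. Its row is chr17:3829564-3838138, plus strand. In Angus animals 1 to 4 the levels were 14.8, 131, 191 and 0.399 CPM at 0 h, 14.4, 125, 165 and 0.208 CPM at 2 h, and 13.1, 129, 162 and 0.307 CPM at 8 h. In Holstein animals they were 215, 358, 180.0 and 207 CPM at 0 h, 188, 338, 171 and 191 CPM at 2 h, and 235, 353, 170.0 and 222 CPM at 8 h. Angus 4 was near 0 and Angus 1 low at all 3 hours, so the 4 Angus animals spanned a 478-fold range at 0 h where the Holstein animals spanned a 2.0-fold range.

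Every Holstein library of SFRP2 lay above every Angus library at 2 h and at 8 h, which held in that direction for 12.7% and 10.8% of all rows. At 0 h Angus 3 lay above Holstein 3. The log2 difference was 1.53, 1.54 and 1.70 at 0, 2 and 8 h, with SEs of 1.06, 1.11 and 1.09 (FDR = 0.378, 0.359 and 0.311), so none passed. With the animal number as a block, which pairs different animals, the differences were 2.98, 2.93 and 3.15 (FDR = 0.155, 0.156 and 0.139). Within an animal the level of SFRP2 moved little over the hours, with a median ratio of highest to lowest of 1.15 and a largest one of 1.92. At 2 h after LPS all 8 animals were lower than at 0 h, with a log2 fold change of -0.12 (SE 0.86, FDR = 0.966), or with a block for the animal -0.12 (FDR = 0.0227), and without the 4 libraries 0.0014 (FDR = 0.999). A fall in every animal was seen for 18.6% of all rows.

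DKK3, a divergent member of the DKK family, varied least over the hours within an animal among the tested members, with a largest ratio of 1.27. Its row is chr15:41241522-41291992, plus strand. The mean was 168 ± 18.4, 182 ± 21.7 and 166 ± 17.9 CPM at 0, 2 and 8 h in Angus and 192 ± 32.7, 221 ± 46.0 and 210.0 ± 30.9 CPM in Holstein (SD, n = 4). No comparison of DKK3 passed. At 8 h every Holstein library (186-253 CPM) lay above every Angus library (149-183 CPM), as 10.8% of all rows did, with a log2 difference of 0.35 (SE 0.14, FDR = 0.0616). At 2 h after LPS all 8 animals were higher than at 0 h, by a log2 fold change of 0.16 (SE 0.13, FDR = 0.452), or with a block for the animal 0.15 (FDR = 9.37e-04).

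**Figure D3:**
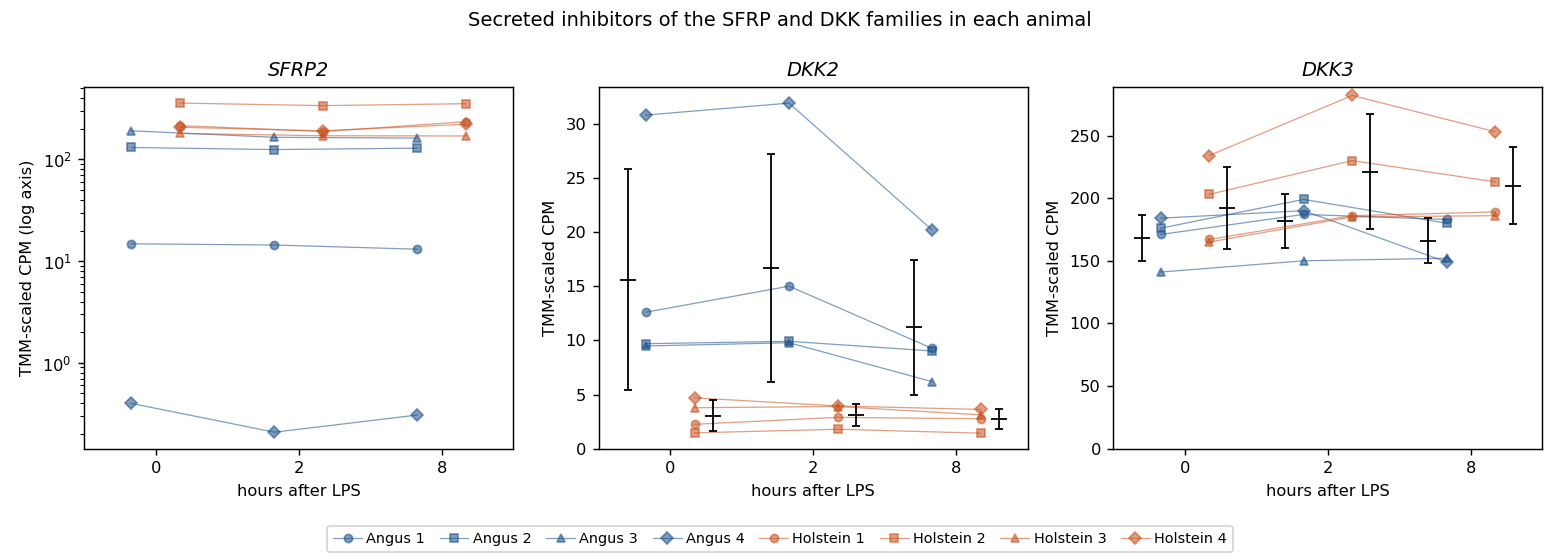
Levels of SFRP2 (log axis), DKK2 and DKK3 (linear axes from 0) in TMM-scaled CPM against hours after LPS. Each symbol and line is 1 animal, blue for Angus and orange for Holstein, and the black bars for DKK2 and DKK3 give the mean ± SD of 4 animals. SFRP2 in Angus 4 stays between 0.208 and 0.399 CPM, and the Holstein levels of DKK2 lie under all Angus levels at each hour.

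SFRP1, SFRP4 and DKK1 were at the edge of detection. SFRP1 (chr27:35900360-35943920, minus strand) had at most 19 counts and 0.0246 to 0.189 CPM in the 24 libraries. SFRP4 (chr4:50009872-50020466, minus strand) had a count in 21 libraries, at most 33 counts and 0.361 CPM. DKK1 (chr26:6853317-6855767, minus strand), the best known inhibitor of LRP co-receptors, had a count in 12 libraries.

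The DKK1 counts in Angus animals 1 to 4 were 26, 1, 0 and 6 at 0 h, 15, 4, 0 and 10 at 2 h, and 7, 1, 1 and 7 at 8 h. In Holstein it had 0 counts in all 8 libraries at 0 h and 2 h and 1 count each in animals 1 and 2 at 8 h. A count of 0 allows up to 3 counts, which is 0.033 to 0.059 CPM without TMM factors in the Holstein libraries at 0 h. This covers counting error only. The Angus level reached 0.316 CPM (0.344 CPM without TMM factors), in animal 1 at 0 h, and no fold or test is given at this depth.

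**Figure D4:**
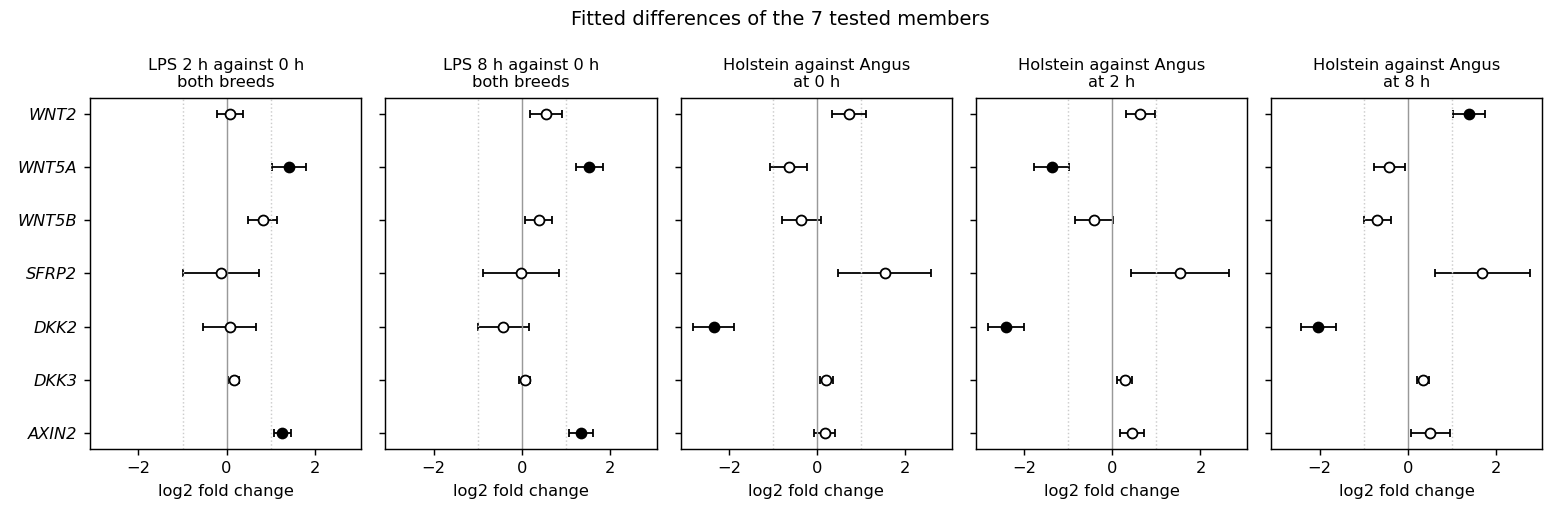
Log2 fold change ± SE of the 7 tested members in 5 comparisons, from edgeR fits over all rows, with filled points past the threshold and dotted lines at a fold change of 2. After LPS the filled points are WNT5A and AXIN2 at both hours, and between the breeds they are DKK2 at all 3 hours, WNT5A at 2 h and WNT2 at 8 h.

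The unnamed intervals beside WNT5A and WNT5B, which share no base with the genes' rows, were also followed. The interval that starts just past the end of WNT5A, chr22:46112684-46479695, rose by 1.04 at 2 h (FDR = 0.0208) and by 1.56 at 8 h (FDR = 7.05e-06) with both breeds together, and was lower in Holstein cultures at 2 h (-1.19, FDR = 0.0133). The interval on the start side of WNT5A, chr22:45555762-46096227, had 0.40 at 2 h (FDR = 0.359) and 0.32 at 8 h (FDR = 0.148). Beside WNT5B, the interval at its start, chr5:108613566-108637827, rose by 1.95 at 2 h (FDR = 7.15e-08). The interval past its end, chr5:108650090-108705364, rose by 1.06 (FDR = 3.86e-04). Both lay higher at 2 h than at 0 h in every animal, as WNT5B itself did without passing. What the intervals hold was not tested.

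The rest of the pathway was followed in 91 further Wnt genes, of which 87 had a row, 61 were tested at least once and 12 passed at least once (11.0% of all rows tested). At 2 h after LPS with both breeds together, 2 of 59 tested genes rose and 1 fell (2.82% of all rows passed), with a median log2 fold change of -0.04. At 8 h, 1 of 59 rose and 1 fell (1.42% of all rows), with a median of -0.11. Between the breeds, 5 of 61 passed at 0 h (3.83% of all rows), 4 of 58 at 2 h (4.46%) and 2 of 58 at 8 h (3.26%). In the interaction 0 of 59 passed with edgeR at either hour, and 4 at 2 h and 0 at 8 h had an unadjusted p under 0.05.

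Among the 16 other WNT ligands, 4 were tested and WNT10B, a canonical ligand, passed. Its Angus levels in animals 1 to 4 were 1.43, 1.25, 1.81 and 0.945 CPM at 0 h and 8.15, 9.79, 14.3 and 5.27 CPM at 2 h, and its Holstein levels were 2.82, 2.86, 1.47 and 2.80 CPM at 0 h and 17.6, 20.3, 13.2 and 25.2 CPM at 2 h. All 2 h levels lay above all 0 h levels, and by 8 h WNT10B stood at 0.614-1.73 CPM in Angus and 2.21-3.66 CPM in Holstein. It rose by 2.89 at 2 h (SE 0.31, FDR = 5.2e-16) and fell by 2.74 from 2 h to 8 h (SE 0.38, FDR = 4.2e-10), in 8 of 8 animals each time. WNT10B was higher in Holstein cultures by 1.02 at 2 h (SE 0.31, FDR = 0.0103, groups overlapping) and by 1.5 at 8 h (SE 0.33, FDR = 3.25e-04, groups apart). The 2 h difference was lost without Angus 1, Angus 4, Holstein 2 or Holstein 4 in turn, with values from 0.82 to 0.99. At 0 h the breed difference of WNT10B was 0.88 (FDR = 0.0278), under the fold limit.

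Of the 9 other secreted inhibitors 1 was tested. This was IGFBP4, an IGF-binding protein that can also antagonise Wnt signalling, and it was lower in Holstein cultures at 0 h (-1.08, FDR = 0.00862) and 2 h (-1.15, FDR = 0.00369). The 0 h value of IGFBP4 was -0.51 without the 4 libraries named above (FDR = 0.564) and had an FDR of 0.0617 with the F test, 0.0526 without Holstein 2 and 0.0587 without Holstein 4. Both values of IGFBP4 lay under the fold limit without Angus 4, at -0.77 and -0.78. At 8 h the breed difference of IGFBP4 was -0.92 (FDR = 0.0167), under the fold limit. Of the 18 receptors and co-receptors 17 were tested, and the Frizzled receptors FZD4 (2 h, -1.02, FDR = 3.78e-05) and FZD8 (8 h, -1.01, FDR = 0.00607) fell in Holstein cultures after LPS. With a block for the animal, FZD4 was at -0.998 and FZD8 at -0.98, both just under the fold limit, and FZD8 was -0.58 without the 4 libraries (FDR = 0.344). FZD4 was -0.88 without Holstein 1, and FZD8 lost its call without Holstein 2 (-0.93) or Holstein 4 (-0.83). In Angus cultures FZD4 was at -0.69 at 2 h (FDR = 0.275) and FZD8 at -0.51 at 8 h (FDR = 0.0787). With both breeds together the values were -0.88 (FDR = 0.0031) and -0.74 (FDR = 0.00413), under the fold limit. Neither gene passed in the interaction, so a fall particular to Holstein was not shown.

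Of the R-spondins and their partners, RSPO3, which raises the number of Frizzled receptors at the cell surface, rose by 1.02 from 0 h to 8 h with both breeds together (SE 0.23, FDR = 3.4e-04, 8 of 8 animals). Its mean went from 13.1 ± 3.11 to 24.9 ± 7.47 CPM in Angus and from 7.51 ± 1.67 to 16.9 ± 3.02 CPM in Holstein (SD, n = 4). The value lay close to the fold limit and was 0.93 without Angus 3 and 0.99 without the 4 libraries, and the symbol stood on 2 rows, of which the one with more counts was used. The 2 genes of ligand secretion and the 12 tested transducers had no member past the threshold. Of 11 tested nuclear factors TCF7, a DNA-binding partner of β-catenin, rose at 2 h by 1.65 (SE 0.29, FDR = 9.08e-07, 8 of 8 animals), from 4.02 ± 1.54 to 14.7 ± 6.20 CPM in Angus and from 8.30 ± 1.67 to 24 ± 3.89 CPM in Holstein. TCF7 was higher in Holstein cultures at 0 h (1.06, FDR = 0.00359) and 8 h (1.15, FDR = 0.00151). Its 0 h difference was 0.74 without the 4 libraries (FDR = 0.333) and lay under the fold limit without Angus 1, Angus 4 or Holstein 4 (0.90 to 0.96), and its 8 h difference did so without Angus 1 (0.99) or Holstein 4 (0.98).

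Of 12 further targets and feedback genes 10 were tested and 6 passed at least once (11.0% of all rows tested), in both directions. PRICKLE1, of the planar cell polarity branch, fell by 1.12 at 2 h (SE 0.30, FDR = 0.0017, 8 of 8 animals), rose by 1.15 from 2 h to 8 h (SE 0.29, FDR = 9.04e-04, 8 of 8 animals) and was higher in Holstein cultures at 2 h (1.21, FDR = 5.19e-06). At 0 h and 8 h PRICKLE1 was also higher in Holstein cultures, by 0.90 (FDR = 0.00157) and 0.88 (FDR = 4.6e-04), both under the fold limit. The PRICKLE1 row overlaps LOC100139834, LOC100847111 and an unnamed interval, so the same reads can enter several rows. It had 300.0 to 589.6 covered bases per count, and the cause was not tested. Without the 4 libraries the 2 h value of PRICKLE1 was -0.90 (FDR = 0.0256), and in Holstein alone (-1.02) it was -0.78 without them and -0.85 without Holstein 2, each under the fold limit. DACT1, an intracellular antagonist, fell by 1.10 at 8 h (SE 0.33, FDR = 0.0137, 8 of 8 animals; FDR = 0.0525 without Holstein 2). WISP1, a secreted matricellular protein, rose in Angus at 2 h (1.27, FDR = 5.23e-05), had 0.52 in Holstein (FDR = 0.0307, under the fold limit, 4 of 4 animals higher) and fell by 1.10 from 2 h to 8 h with both breeds together (SE 0.24, FDR = 8.64e-05, 8 of 8 animals). Of all rows, 18.6% fell in every animal at 2 h and 17.8% from 2 h to 8 h. For the other animal counts of these genes the share of all rows is not given. WISP1 was higher in Holstein at 0 h (1.08, FDR = 5.58e-05), which lay at or under the fold limit without the 4 libraries (0.94), Angus 4 (0.91) or Holstein 2 (FDR = 0.00122). The breed difference of WISP1 was 0.32 at 2 h (FDR = 0.35) and 0.94 at 8 h (FDR = 0.00185), under the fold limit.

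NKD1, a feedback antagonist, fell in Angus at 2 h (-1.31, FDR = 0.0104; FDR = 0.0538 with the F test, 0.101 in 1 fit over all samples, 0.0545 without Angus 1 and 0.0595 without Angus 3). In Holstein NKD1 was at -0.52 at 2 h (FDR = 0.711), and with both breeds together at -0.91 (FDR = 0.0757). NKD1 did not pass in the 2 h interaction, which with a block for the animal was 0.86 (FDR = 0.00906), under the fold limit. APCDD1, an inhibitor at the cell surface, fell in Angus at 8 h (-1.5, FDR = 2.22e-07) and was lower in Holstein at 0 h (-1.26, FDR = 0.00242), at an average of 1.26 CPM. In 1 fit over all samples its values were -1.5 (FDR = 4.37e-04) and -1.26 (FDR = 0.00249), and only the limit on the average CPM was missed. After LPS in Holstein APCDD1 was too low to be tested. Its Holstein levels at 8 h were 0.244-0.557 CPM, which was 0.392 to 0.704 times the 0 h level of the same animal. TNFRSF19 was higher in Holstein at 0 h (1.63, FDR = 6.67e-04) and 2 h (1.27, FDR = 0.0119), the latter with an FDR of 0.0522 without Angus 1 and 0.0634 without Holstein 4.

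**Figure D5:**
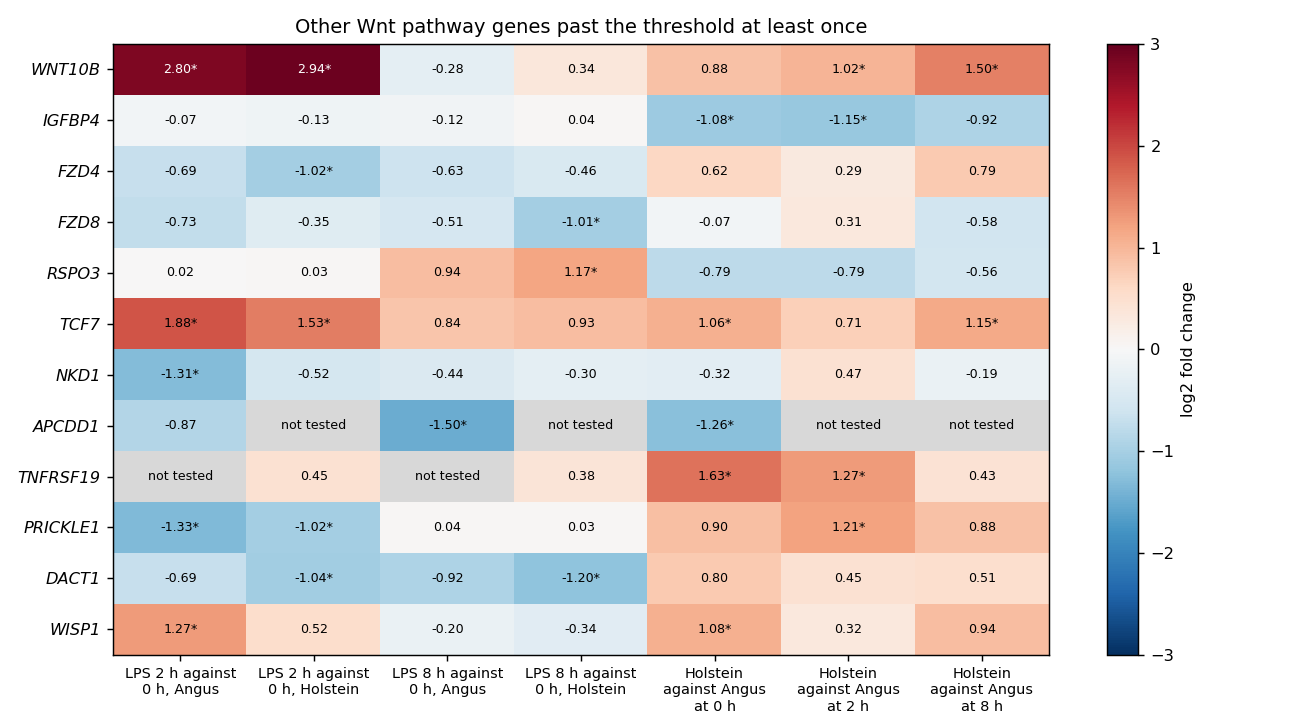
Log2 fold changes of the 12 other Wnt genes that passed at least once, by comparison, with an asterisk where the threshold was passed and grey where the gene was not tested. WNT10B and TCF7 are past the threshold at 2 h after LPS in both breeds (2.80 and 2.94, 1.88 and 1.53), and PRICKLE1 is past it downward in both (-1.33 and -1.02).

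For the 4 members that passed, the rows with the most similar pattern were looked up among 13073 rows over the 24 libraries, as the smallest root mean square difference of centred log2(CPM + 1) values. For WNT5A this was RGS17 (0.474, where WNT5A itself varied by 0.937), followed by VEGFC and LOC100848808. For AXIN2 it was PCDH7 (0.315 against 0.66), followed by LHFPL2 and CEBPD. For DKK2 it was XPNPEP2 (0.308 against 1.073), followed by LRRN4CL and AQP1. For WNT2 it was B7H6 (0.246 against 0.512), followed by RAB20 and MARCH3.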

How the data were processed

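Polyadenylated RNA of the 24 cultures (lysates of duplicate wells pooled) was sequenced by the authors, and reads were aligned to UMD v3.1 with NextGENe. The submitters' processing notes name CASAVA 1.7. The read counts were deposited by the authors as raw whole-number counts per row, where a row is a gene span with introns or an interval without a symbol. The deposited mean coverage per row was used only to obtain covered bases per count. Groups and animal numbers came from the sample labels. For every comparison, only its own libraries entered the fit, over all rows with at least 1 CPM in 50% of them, using edgeR 4.0.16 (TMM scaling, likelihood-ratio test, Benjamini-Hochberg FDR over all rows) in R 4.3.3, after the filter and test in the study's methods, which name limma beside edgeR, give counts per annotated gene and do not name TMM. Here unnamed intervals were tested too. Alternatives were the quasi-likelihood F test, a block for the animal, DESeq2 1.42.0, other scaling and filters, 1 fit over all samples, and fits without each animal or the 4 libraries. The code was tested on simulated data.

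The block rests on animals shared between hours. Deviations from group means correlated within an animal (8 pairs for each pair of hours, mean r 0.659, 0.619 and 0.611, lowest 0.432). Between breeds a number names different animals. All 36 pairs of libraries within groups differed by more than sampling noise. Members and gene lists were chosen with earlier results of these data known. Every member was named, as was each listed Wnt gene past the threshold at least once. The unnamed intervals beside members were looked up after the members' values were seen. Sequences and exon annotation on UMD v3.1 were not used here.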

Additional observations from a re-analysis of the deposited data

Results flagged for a closer look

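In 42 checks of single libraries within groups of 4 for the 7 tested members, 4 stood apart from the other 3 by more than Dixon's critical value for the gap divided by the range, and chance flags about 1 in 20 groups. WNT2 in Angus 4 at 0 h was low at 0.711 CPM (ratio 0.92). SFRP2 in Holstein 2 at 2 h was high at 338 CPM (0.882). DKK2 in Angus 4 at 0 h was high at 30.8 CPM (0.855). This library, which also holds the WNT2 flag, is 1 of the 4 with fewer covered bases per count of COL1A1. In the 2 h and 8 h libraries of Angus 4, which are not among those 4, DKK2 stood at 31.9 and 20.2 CPM. WNT2 stood there at 1.17 and 0.921 CPM. AXIN2 in Holstein 3 at 8 h was low at 5.6 CPM (0.842).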

How the results depend on the processing

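The number of members past the threshold stayed within 1.5 times the main count in all but 7 of 185 alternative counts. For LPS at 8 h in Angus it was 1, and it became 0 with the F test, 2 in 1 fit over all 24 samples (AXIN2 and WNT5A) and 0 to 2 when 1 animal was left out. Leaving out 1 animal gave 1 to 2 (main 2) for LPS at 2 h in Angus and for Holstein against Angus at 2 h. In the fit over all samples AXIN2 in Angus at 8 h had 1.15 (FDR = 0.0238), and WNT5B in Angus at 2 h had 1.38 without the 4 libraries (FDR = 0.0226). The replicate block (the animal for LPS, the number alone between breeds) moved no member across the threshold.

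Signs turned only for values that were not past the threshold. Without the 4 libraries WNT2 had -0.10 at 2 h with both breeds, -0.17 at 2 h in Holstein, -0.29 at 2 h and -0.16 at 8 h in Angus, and 0.11 in the 2 h interaction. SFRP2 then had 0.0014 at 2 h and 0.15 at 8 h with both breeds and 0.18 at 2 h in Holstein. DKK2 had 0.084 at 8 h in Angus and -0.22 in the 8 h interaction, DKK3 0.040 at 8 h in Angus, WNT5A -0.036 in the 8 h interaction, and AXIN2 -0.038 between breeds at 0 h. With the replicate block WNT5B had 0.0037 in the 2 h interaction (0.0043 with the F test), and AXIN2 -0.017 at 8 h against 2 h (-0.012 with the F test). Leaving out 1 animal gave, for LPS at 2 h in Holstein, -0.067 to 0.13 for WNT2 and -0.050 to 0.20 for DKK2. At 8 h in Angus it gave -0.28 to 0.30 for WNT2 and -0.040 to 0.088 for DKK3. In the 2 h interaction it gave -0.36 to 0.040 for WNT2, -0.14 to 0.043 for WNT5B, -0.074 to 0.065 for SFRP2 and -0.13 to 0.10 for DKK2. It gave -0.037 to 0.021 for SFRP2 at 8 h with both breeds and -0.014 to 0.13 for AXIN2 at 8 h against 2 h. The cause was not tested.

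Over all rows, the F test made 91 calls against 179 at 8 h in Angus, 16 against 56 in the 2 h interaction and 0 against 20 in the 8 h interaction, and the replicate block gave 126 and 100 in the interactions. Without the 4 libraries there were 259 calls against 781 between breeds at 0 h and 6 against 20 in the 8 h interaction, where 1 fit over all samples gave 13. With named genes only, where fewer rows are tested, there were 371 calls against 568 (2 h), 367 against 561 (8 h against 2 h), 410 against 644 (2 h, Holstein), 405 against 611 (2 h, Angus) and 28 against 56 (2 h interaction). Leaving out 1 animal gave as few as 517 at 0 h between breeds (Angus 4), 446 (Angus 4) and as many as 1133 (Angus 3) for the 674 at 8 h, 33 (Angus 4) and 34 (Holstein 1) for the 2 h interaction, and 2 (Holstein 4), 8 (Angus 1) and 62 (Angus 3) for the 8 h interaction. With 4 animals a breed, WNT5A in Angus at 8 h and AXIN2 in Angus rest on few animals, and SFRP1, SFRP4 and DKK1 were too shallow to test. No second row of a member's symbol existed.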
